A study of Mus musculus with 8 samples.

Results

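Chemokine genes were compared between poorly differentiated and well differentiated stages of mouse skin squamous cell carcinoma (SCC), in sorted tumour cells that the labels call cancer stem cells. The 10 genes Cxcl16, Cx3cl1, Cxcl1, Cxcl2, Cxcl5, Cxcl12, Cxcl14, Ccl2, Ccl7 and Ccl20 were chosen as a named list by gene symbol, out of 17097 genes with a probe set of their own on the arrays. All 10 were measured, on 15 probe sets, and where a gene had several, the one brightest on average across the 8 arrays stands for it.

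The tumours arose in K14-HPV16 mice, either spontaneously or after DMBA and TPA, and all carry the HPV16 transgene, which the keratin 14 promoter drives in basal keratinocytes. The labels give the strain as FVB/C57/Bl6 for every sample and the host as nude mice, which lack mature T cells but keep innate immune cells. Grafts were passed from mouse to mouse at the skin site, and in each of 3 tumour lineages (OT7, OT14 and OT15) the later grafts were poorly differentiated. After depletion of blood and endothelial cells, cells positive for α6-integrin and CD34 were sorted. PD-SCC, which the sample titles write as PD/S-SCC, had 4 arrays (2 of OT7 and 1 each of OT14 and OT15), and WD-SCC had 4 arrays divided in the same way. The labels state no age of the animals. Arrays are numbered as biological replicates in the labels, but nothing there says that each came from its own tumour. A p-value thus weighs a difference against the spread between these arrays, part of which may be technical, and precision is limited by how few arrays there are.

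Chemokines are small secreted proteins that bind to G protein-coupled receptors and guide the movement of leukocytes. Keratinocytes and carcinoma cells make many of them under the control of NF-kB, downstream of interleukin 1, tumour necrosis factor and interleukin 17. Most are released as they are made, but Cxcl16 and Cx3cl1 are made as transmembrane proteins with a mucin-like stalk, which hold leukocytes at the cell surface or are shed from it by the proteases Adam10 and Adam17. In skin tumours, the chemokines that bind Cxcr2 are known for drawing in neutrophils, and Ccl2 and Ccl7 for drawing in monocytes.

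Across all genes, 2154 of 17097 (12.6%) passed an adjusted p of 0.05 between the stages, 1331 higher (7.78%) and 823 lower (4.81%) in PD-SCC. The split was 864 higher to 864 lower under cyclic loess and 1150 to 1205 with 75th percentile scaling. Values are log2 units throughout, differences are PD-SCC minus WD-SCC from a limma fit with lineage as a block, and adjusted p are Benjamini-Hochberg values over all genes. The brightest of 15 unspiked bacterial controls lay between 3.61 and 3.81 on the PD-SCC arrays and between 3.82 and 4.37 on the WD-SCC arrays. A gene at or under that control is called not above the control. Another bacterial probe set, outside those 15, lay at 3.48 to 4.28 on the PD-SCC arrays and 4.18 to 5.36 on the WD-SCC arrays. It was brighter than the control on every array but OT14 of PD-SCC, and was not used as the control. On the OT7 arrays of WD-SCC it lay at 5.15 and 5.36, over Ccl20, Cxcl12 and Il1a, which count there as above the control. Levels close to the control are thus not surely above background. The keratinocyte marker Krt5 averaged 4.16 ± 0.17 in PD-SCC and 11.26 ± 0.49 in WD-SCC (SD, n = 4 each), and Krt14 averaged 5.73 ± 1.45 in PD-SCC and 10.74 ± 0.38 in WD-SCC (SD, n = 4 each, adjusted p = 9.11e-05 and 0.00764, limma). The sort markers did not pass the test. Cd34 ran from 6.75 to 8.72 in PD-SCC and from 3.58 to 7.002 in WD-SCC, where OT15 (3.58) was not above the control, so this defining marker was not seen on that array. Itga6 ran from 6.14 to 7.85 in PD-SCC and from 5.32 to 8.15 in WD-SCC, where OT15 (5.32) was again the lowest array. A nonspecific control probe set rich in G and C lay at 6.66 to 7.08 on the PD-SCC arrays and 8.002 to 8.53 on the WD-SCC arrays, and its part in the results was not tested.

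Of the 10 chemokines, 2 passed the test, and both are the transmembrane ones: Cxcl16 was lower and Cx3cl1 higher in PD-SCC. The share is to be read against 12.6% over all genes, so the count is no result about the list as such. The median difference was -0.71 over the 10 chemokines and -0.06 over all genes, with 7 chemokines lower and 3 higher. Under cyclic loess the median was -1.09, with 8 lower and 2 higher, the sign of Cxcl1 having turned.

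**Figure D1:**
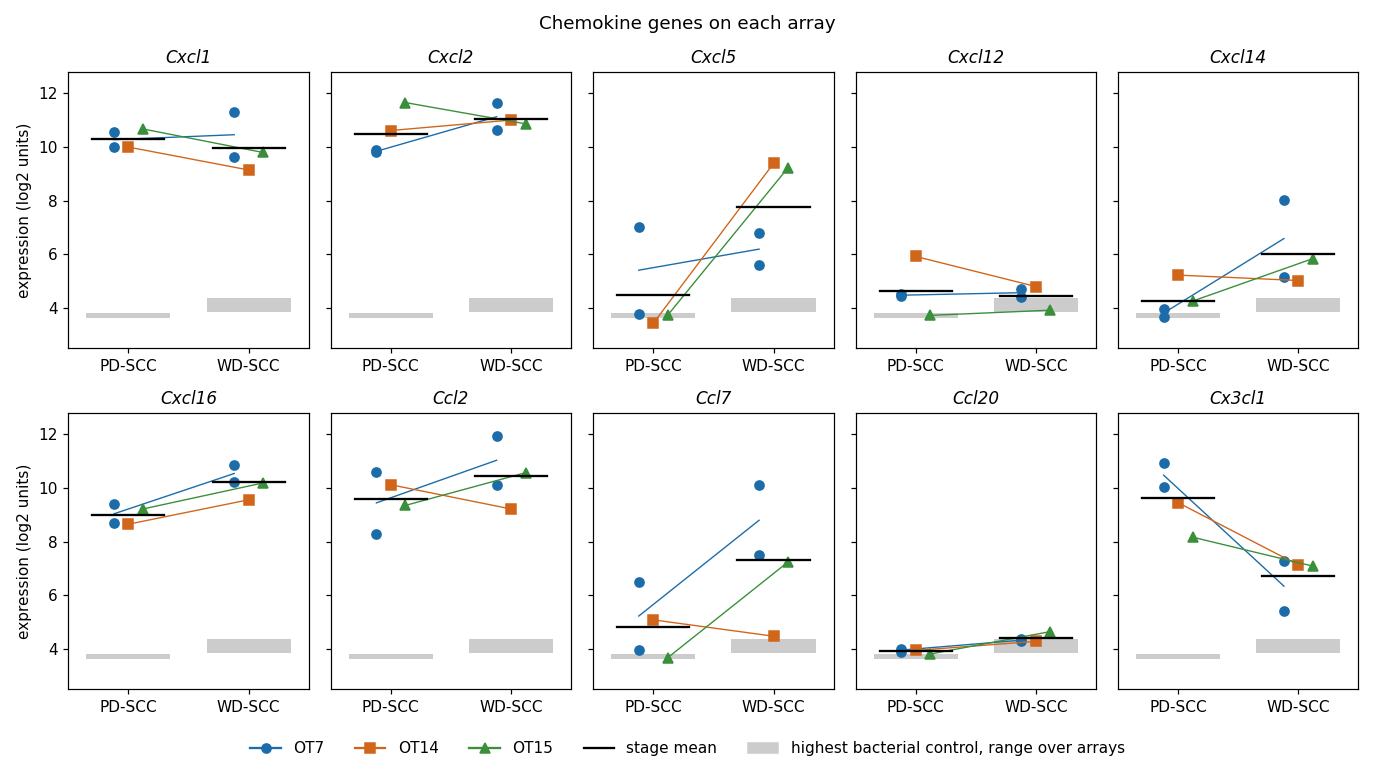
Expression of the 10 chemokine genes in log2 units (vertical axis) on each of 8 arrays, PD-SCC left of WD-SCC, with 1 symbol per array (circles OT7, squares OT14, triangles OT15), coloured lines joining the stages of a lineage, black bars at the stage means and grey bands over the range of the highest bacterial control. The stages are apart for Cxcl16, Ccl20 and Cx3cl1, and Ccl20 lies close to the control on every array.

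Cxcl16, the ligand of Cxcr6 and a scavenger receptor for oxidised lipoprotein, stood at 8.68 and 9.39 in OT7, 8.65 in OT14 and 9.21 in OT15 for PD-SCC, against 10.86 and 10.22 in OT7, 9.56 in OT14 and 10.19 in OT15 for WD-SCC. For OT7 of WD-SCC, here and below, the array without a replicate number comes first and replicate 2 after it. Every PD-SCC array lay below every WD-SCC array, and the gap between the nearest arrays of the stages was smaller than the spread within either stage. Cxcl16 averaged 8.98 ± 0.38 in PD-SCC and 10.20 ± 0.53 in WD-SCC (SD, n = 4 each). It fell by 1.22 (SE 0.24, 95% interval -1.83 to -0.62, adjusted p = 0.0320, limma), a 2.33-fold lower level with an interval of 1.54 to 3.55. Each lineage had a lower level in PD-SCC, with -1.50 in OT7, -0.91 in OT14 and -0.97 in OT15. Its other probe set ran from 6.83 to 7.86 in PD-SCC and from 7.99 to 9.07 in WD-SCC, with a difference of -1.21 and an adjusted p over all probe sets of 0.0234. The call was lost without any 1 of the other 7 arrays (adjusted p = 0.0605 to 0.0727) and was kept only without the unnumbered OT7 array of WD-SCC (0.0479). Over 21 alternatives the adjusted p ran from 0.0193 to 0.0995. All kept the sign, which several of them cannot turn.

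Cx3cl1, also called fractalkine, the ligand of Cx3cr1 on monocytes and natural killer cells, stood at 10.03 and 10.92 in OT7, 9.45 in OT14 and 8.16 in OT15 for PD-SCC, against 5.39 and 7.28 in OT7, 7.12 in OT14 and 7.08 in OT15 for WD-SCC. Every PD-SCC array lay above every WD-SCC array. The OT7 arrays of PD-SCC were the highest and the unnumbered OT7 array of WD-SCC the lowest, so OT7 had the widest gap. Cx3cl1 averaged 9.64 ± 1.16 in PD-SCC and 6.72 ± 0.89 in WD-SCC (SD, n = 4 each). The difference was 2.92 (SE 0.70, 95% interval 1.21 to 4.64, adjusted p = 0.0493, limma), a 7.58-fold higher level with an interval of 2.31 to 24.9.

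By lineage, Cx3cl1 was 4.14 higher in OT7, 2.33 higher in OT14 and 1.08 higher in OT15, a falling order that the test of the difference between lineages did not call (adjusted p = 0.634, limma). Its other probe set stood at 7.13, 8.49, 5.50 and 4.31 in PD-SCC (OT7, OT7, OT14, OT15), against 3.75, 4.39, 4.52 and 4.52 in WD-SCC. On that probe set the OT15 array of PD-SCC was within the WD-SCC range, and the difference of 2.06 did not pass (adjusted p over all probe sets 0.149). The call on the brighter probe set stood close to the threshold and was lost without any 1 of the 8 arrays, at 0.0501 (without the unnumbered OT7 array of WD-SCC) to 0.131 (without the first OT7 array of PD-SCC). Over 21 alternatives the sign was kept, which several of them cannot turn, and the adjusted p ran from 0.0239 to 0.1499. Its neighbours on chromosome 8, Ccl22 and Ccl17, were measured too. Ccl22 averaged 3.66 ± 0.11 in PD-SCC and 4.48 ± 0.50 in WD-SCC, and Ccl17 4.57 ± 0.10 in PD-SCC and 4.37 ± 0.14 in WD-SCC (SD, n = 4 each, adjusted p = 0.0929 and 0.266, limma).

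The partners of these 2 chemokines did not pass the test. Cxcr6, the receptor of Cxcl16 on T cells and natural killer T cells, ran from 3.23 to 3.42 in PD-SCC and from 3.28 to 4.12 in WD-SCC, above the control on 1 of 8 arrays (WD-SCC). Cx3cr1, the receptor of Cx3cl1, stood at 4.60, 4.16, 5.79 and 4.45 in PD-SCC (OT7, OT7, OT14, OT15) and 5.601, 4.39, 4.44 and 3.82 in WD-SCC, with a difference of 0.19 (SE 0.45, adjusted p = 0.796, limma). It was low on all arrays and highest in OT14 of PD-SCC and the unnumbered OT7 array of WD-SCC. Adam10 ran from 6.67 to 8.43 in PD-SCC and from 6.11 to 8.54 in WD-SCC, and Adam17 from 6.99 to 7.70 in PD-SCC and from 5.63 to 7.18 in WD-SCC. Both sheddases were thus above the control on all 8 arrays, and the stages overlapped for each.

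**Figure D2:**
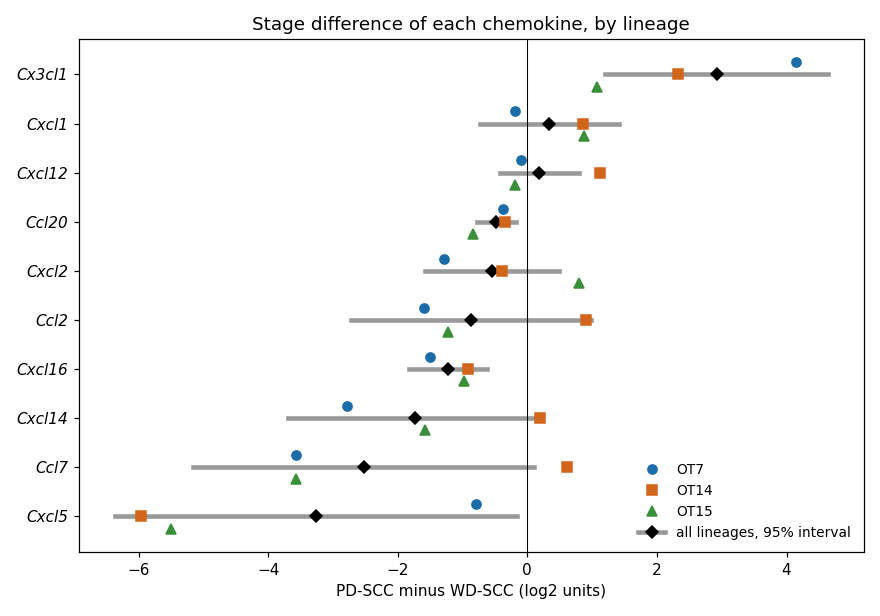
Difference between PD-SCC and WD-SCC of each chemokine (horizontal axis, log2 units, above 0 where PD-SCC is higher), with black diamonds and grey bars for the fit over all lineages and its 95% interval and coloured symbols for OT7, OT14 and OT15. All lineages lie on 1 side of 0 for Cx3cl1, Cxcl16, Ccl20 and Cxcl5, and on both sides for the other 6 genes. The PD-SCC array is not above the control for Cxcl5 in OT14 and OT15 and for Cxcl12, Ccl7 and Ccl20 in OT15, so those points are fitted values and not measured sizes.

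Cxcl1, Cxcl2 and Cxcl5 bind Cxcr2 and attract neutrophils. Their genes lie in 1 cluster on chromosome 5, in the order Cxcl5, Ppbp, Pf4, Cxcl3, Cxcl15, Cxcl1 and Cxcl2, and the cluster did not move as a block. Cxcl1 and Cxcl2, side by side at its end, were far above the control in both stages with no difference that passed, and Cxcl5 and Ppbp, side by side at the other end, were near the control in most or all PD-SCC arrays.

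Cxcl1, known in the mouse as KC, stood at 9.9999 and 10.54 in OT7, 9.99 in OT14 and 10.67 in OT15 for PD-SCC, against 11.30 and 9.61 in OT7, 9.14 in OT14 and 9.79 in OT15 for WD-SCC. The unnumbered OT7 array of WD-SCC was the highest of all, and the other WD-SCC arrays lay below all PD-SCC arrays. The difference was 0.34 (SE 0.43, 95% interval -0.73 to 1.41, adjusted p = 0.614, limma). Without that 1 array the difference was 0.78, with an adjusted p of 0.0562 (0.0562 to 0.964 over the alternatives), so the size rested on that array. Cxcl2, also called MIP-2, stood at 9.80 and 9.87 in OT7, 10.61 in OT14 and 11.65 in OT15 for PD-SCC, against 11.64 and 10.62 in OT7, 11.002 in OT14 and 10.86 in OT15 for WD-SCC. Lowest and highest arrays were both PD-SCC, OT7 low and OT15 high, and the stages overlapped. The difference was -0.55 (SE 0.42, 95% interval -1.59 to 0.50, adjusted p = 0.408, limma), with -1.29 in OT7, -0.39 in OT14 and 0.79 in OT15.

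Cxcl5, known in the mouse as LIX, stood at 3.77 and 7.03 in OT7, 3.41 in OT14 and 3.72 in OT15 for PD-SCC, against 6.78 and 5.59 in OT7, 9.38 in OT14 and 9.22 in OT15 for WD-SCC. In OT14 and OT15 the PD-SCC arrays were not above the control and the WD-SCC arrays were bright, whereas replicate 2 of OT7 in PD-SCC was as bright as its WD-SCC partners. The difference was -3.26 (SE 1.26, 95% interval -6.37 to -0.15), with an unadjusted p of 0.0425 and an adjusted p of 0.142 (limma), so it did not pass. By lineage it was -0.79 in OT7. Against the control, Cxcl5 was lower in PD-SCC by at least 54.6-fold in OT14 and at least 42.5-fold in OT15. Each bound comes from 1 array a stage. The other bacterial probe set lay at 4.28 on the OT15 array of PD-SCC, above the control (3.81). Against that probe set the OT15 bound would be smaller. The test of the difference between lineages did not call Cxcl5 (adjusted p = 0.555, limma). With values raised to the highest control of the 8 arrays the difference over all lineages was -2.71 (adjusted p = 0.166). Without replicate 2 of OT7 in PD-SCC the difference was -4.41, with an adjusted p of 0.0535. Without lineage OT7 it was -5.74 and passed, with an adjusted p of 0.0254 in a range of 0.0254 to 0.325 over 21 alternatives.

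The promoters of Cxcl1 and Cxcl2 are shown because both genes were far above the control in both stages and share a motif, and those of Ccl20 and Cx3cl1 for comparison. Each run is the 150 bases before the annotated start, plus strand, from the RefSeq promoter table (GRCm38.p6): Cxcl1 chr5:90891095-90891244, Cxcl2 chr5:90903749-90903898, Ccl20 chr1:83116616-83116765 and Cx3cl1 chr8:94772030-94772179. Capitals mark matches to the NF-kB consensus on either strand.
Cxcl1: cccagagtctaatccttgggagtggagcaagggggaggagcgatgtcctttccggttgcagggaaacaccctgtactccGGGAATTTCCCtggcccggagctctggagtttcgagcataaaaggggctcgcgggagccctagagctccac
Cxcl2: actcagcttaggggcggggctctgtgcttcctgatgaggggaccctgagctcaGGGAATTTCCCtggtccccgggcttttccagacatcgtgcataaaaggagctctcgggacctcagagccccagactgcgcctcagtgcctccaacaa
Ccl20: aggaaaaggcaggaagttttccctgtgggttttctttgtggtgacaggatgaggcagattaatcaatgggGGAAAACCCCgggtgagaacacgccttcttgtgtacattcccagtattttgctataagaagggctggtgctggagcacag
Cx3cl1: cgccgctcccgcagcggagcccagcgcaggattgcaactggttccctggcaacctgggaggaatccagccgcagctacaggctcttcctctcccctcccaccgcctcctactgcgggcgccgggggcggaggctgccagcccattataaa
The consensus was searched on both strands of windows from 250 bases before to 50 bases after the start. The table holds a window for 6 of the 10 chemokines, and 3 of them had a match. Cxcl1 and Cxcl2 hold the same 10 bases, GGGAATTTCC, beginning 71 bases before the start in Cxcl1 and 97 in Cxcl2. In both, a second match on the minus strand overlaps these bases, shifted by 1 base towards the start. Ccl20 has GGGGTTTTCC on its minus strand, beginning 80 bases before the start. Cx3cl1, Cxcl12 and Cxcl14 have none in these windows. Over all 32851 windows of the table, 2779 (8.46%) hold a match, and 5 of 21 other chemokines do. A match is a description of the letters only.

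Of the other genes of the chromosome 5 cluster, Ppbp passed the test. Ppbp, the precursor of another Cxcr2 ligand and abundant in platelets, stood at 3.48, 3.27, 3.14 and 3.46 in PD-SCC (OT7, OT7, OT14, OT15), against 7.39, 10.03, 11.24 and 10.43 in WD-SCC. No PD-SCC array was above the control and every WD-SCC array was bright, with the unnumbered OT7 array the lowest. Against the control, Ppbp was lower in PD-SCC by at least 67.6-fold (adjusted p = 0.00763, limma). Pf4, the platelet factor that lies beside it, stood at 4.60, 3.70, 4.22 and 3.74 in PD-SCC (same order) and 3.76, 6.37, 6.74 and 5.13 in WD-SCC. Its unnumbered OT7 array of WD-SCC lay within the PD-SCC range, and the difference of -1.43 did not pass (adjusted p = 0.187, limma). Cxcl15, an epithelial chemokine of the mouse lung, stayed between 3.66 and 3.85 in PD-SCC and between 3.84 and 4.28 in WD-SCC, close to the control. Cxcl3 was not analysed here. Cxcr2, the receptor of these ligands on neutrophils, ran from 3.16 to 3.55 in PD-SCC and from 3.39 to 4.23 in WD-SCC and was above the control on 1 of 8 arrays, in WD-SCC.

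**Figure D3:**
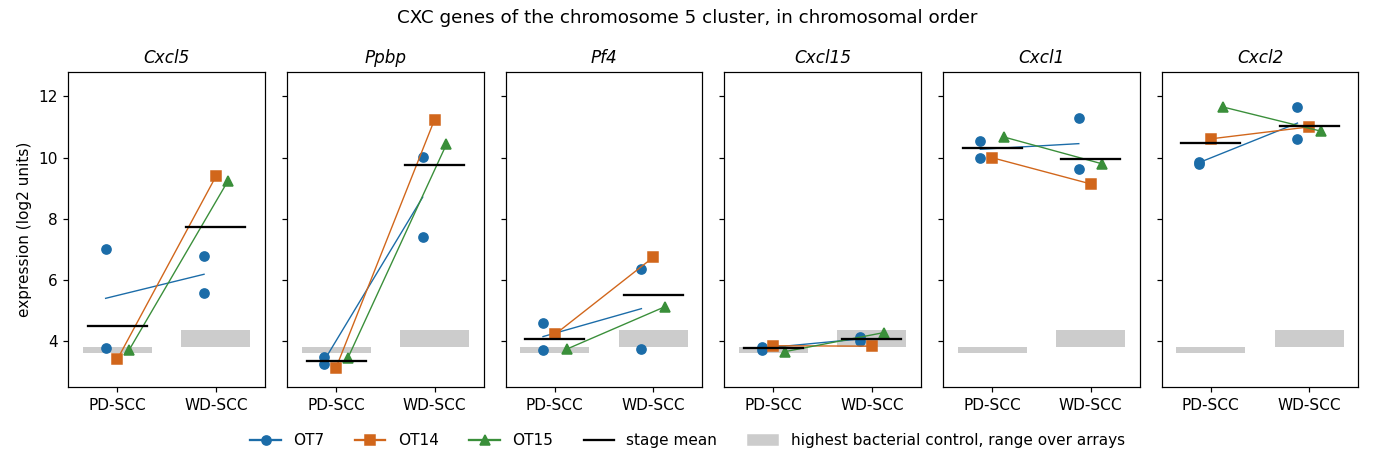
Expression of 6 CXC genes of the chromosome 5 cluster in log2 units (vertical axis), in chromosomal order from left to right and not to distance, with symbols, lines, bars and grey bands for arrays, lineages, stage means and the bacterial control. Ppbp is at or under the control on all PD-SCC arrays and between 7.39 and 11.24 in WD-SCC, whereas Cxcl1 and Cxcl2 stay above 9 on all arrays.

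Cxcl12 and Cxcl14 are chemokines made at a steady rate in many tissues. Cxcl12, the ligand of Cxcr4 and Ackr3 that holds stem cells and leukocytes in place, stood at 4.51 and 4.42 in OT7, 5.91 in OT14 and 3.71 in OT15 for PD-SCC, against 4.41 and 4.72 in OT7, 4.79 in OT14 and 3.91 in OT15 for WD-SCC. OT14 was the highest array of either stage, OT15 was not above the control in either, and the stages overlapped. The difference was 0.19 (95% interval -0.43 to 0.80, adjusted p = 0.631, limma), with -0.09 in OT7 and 1.13 in OT14, and none is given for OT15, where neither stage was above the control. Without either OT14 array the sign turned, to -0.13. Its 3 probe sets disagreed: the second had a difference of -0.02, and the third a difference of -0.79, with the unnumbered OT7 array of WD-SCC at 6.44 and the other WD-SCC arrays at 3.40 to 3.86. Ackr3, a receptor that takes up Cxcl12 without chemotactic signalling, ran from 3.62 to 4.83 in PD-SCC and from 3.29 to 3.98 in WD-SCC, above the control on 3 of 4 PD-SCC and 0 of 4 WD-SCC arrays (adjusted p = 0.235, limma). The control itself was higher on the WD-SCC arrays, which bears on that count. In OT15, Ackr3 was higher in WD-SCC (3.98) than in PD-SCC (3.62). Cxcr4 was not analysed here.

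Cxcl14, which normal epidermis makes, stood at 3.95 and 3.65 in OT7, 5.22 in OT14 and 4.25 in OT15 for PD-SCC, against 8.02 and 5.13 in OT7, 5.01 in OT14 and 5.83 in OT15 for WD-SCC. The unnumbered OT7 array of WD-SCC was far above all others, and OT14 had nearly the same level in both stages, so the stages overlapped. The difference was -1.74 (SE 0.79, 95% interval -3.69 to 0.22, adjusted p = 0.195, limma), with -2.78 in OT7, 0.20 in OT14 and -1.59 in OT15. The second probe set gave -1.81 (adjusted p over all probe sets 0.263). No alternative brought Cxcl14 past the threshold, and all kept its sign, which several of them cannot turn.

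Ccl2 and Ccl7 lie side by side at the start of a cluster on chromosome 11 that also holds Ccl11, Ccl12 and Ccl8, and both attract monocytes through Ccr2. Ccl2, also called MCP-1, stood at 8.29 and 10.59 in OT7, 10.12 in OT14 and 9.34 in OT15 for PD-SCC, against 11.94 and 10.13 in OT7, 9.21 in OT14 and 10.57 in OT15 for WD-SCC. All arrays were bright, the unnumbered OT7 array of WD-SCC highest and the first OT7 array of PD-SCC lowest, and the stages overlapped. The difference was -0.87 (SE 0.75, 95% interval -2.72 to 0.98, adjusted p = 0.452, limma). Ccl7, also called MCP-3, stood at 3.96 and 6.47 in OT7, 5.08 in OT14 and 3.66 in OT15 for PD-SCC, against 10.11 and 7.48 in OT7, 4.47 in OT14 and 7.23 in OT15 for WD-SCC. OT15 of PD-SCC was not above the control, and OT14 of WD-SCC was the 1 array of its stage within the PD-SCC range.

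Ccl7 differed by -2.53 (SE 1.07, 95% interval -5.16 to 0.11, adjusted p = 0.170, limma), with -3.57 in OT7, 0.61 in OT14 and at least 10.7-fold lower in PD-SCC against the control in OT15. Ccl2 had the same signs by lineage, with -1.59 in OT7, 0.90 in OT14 and -1.22 in OT15. Its difference was smaller than that of Ccl7 in OT7 and OT15 and larger in OT14. Neither the stage effect nor its difference between lineages passed for these genes (difference between lineages: adjusted p = 0.837 for Ccl2 and 0.720 for Ccl7, limma). Ccr2, their receptor on monocytes, was above the control on none of the 8 arrays, from 3.02 to 3.79 in PD-SCC and from 2.95 to 3.20 in WD-SCC. Of their cluster, Ccl11 and Ccl12 were not above the control on any array.

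Ccl20, which draws Ccr6-bearing dendritic cells and T cells into skin, stood at 4.0035 and 3.89 in OT7, 3.94 in OT14 and 3.80 in OT15 for PD-SCC, against 4.36 and 4.27 in OT7, 4.27 in OT14 and 4.64 in OT15 for WD-SCC. Every PD-SCC array lay below every WD-SCC array, but each array lay within a narrow margin of its own bacterial control, which was lower in PD-SCC too. The difference was -0.48 (SE 0.12, 95% interval -0.78 to -0.18), with an unadjusted p of 0.00781 and an adjusted p of 0.0565 (limma). With all values raised to the highest bacterial control of the 8 arrays, an alternative chosen after the data were seen, the difference was -0.07 (adjusted p = 0.629, in a range of 0.0301 to 0.629 over 21 alternatives). It passed without the lineage block (adjusted p = 0.0312). Ccr6 was above the control on none of the 8 arrays, from 3.14 to 3.36 in PD-SCC and from 3.22 to 3.63 in WD-SCC.

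Over all 10 chemokines, the stages did not overlap for 1 gene higher in PD-SCC (Cx3cl1) and 2 lower (Cxcl16 and Ccl20), against 10.8% and 13.3% of all genes. Within single lineages, limma called none of the 10, against 9.07% of all genes in OT7, 0.842% in OT14 and 1.33% in OT15. At an unadjusted p under 0.05 there were 3 in OT7 (Cx3cl1, Cxcl16 and Cxcl2), 2 in OT14 (Cxcl12 and Cxcl5) and 2 in OT15 (Ccl20 and Cxcl5), and the spread for OT14 and OT15 is that of the OT7 arrays. The share of all genes at that unadjusted cutoff was not counted within lineages, so these counts are no result about the list. Closest within OT7 were Cx3cl1 (adjusted p = 0.0575) and Cxcl16 (adjusted p = 0.0947). The difference between lineages in the stage effect was called for 0 chemokines and 0% of all genes, with 1 chemokine (Cxcl12) and 2043 genes at an unadjusted p under 0.05. A difference in level between lineages was called for 0 chemokines and 0% of all genes as well, with 1 chemokine (Cxcl12 again) and 1251 genes at an unadjusted p under 0.05. With a trended and robust prior, limma called 14 genes for the first test and 0 for the second, none of them a chemokine of the list.

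No other measured chemokine passed higher in PD-SCC. Of 8 other CXC genes, 1 passed lower (Ppbp) and 0 higher, with a median of -0.58. Of 17 other CC and XC genes, 3 passed lower and 0 higher, with a median of -0.54. Ccl3, a macrophage inflammatory protein, stood at 3.69, 3.53, 4.19 and 3.60 in PD-SCC (OT7, OT7, OT14, OT15), against 10.53, 8.49, 7.13 and 6.55 in WD-SCC. It fell by 4.42 (SE 0.75, adjusted p = 0.0204, limma), and the stages were far apart, with 1 of 4 PD-SCC arrays (OT14) above the control. That call was lost without either OT7 array of PD-SCC or without replicate 2 of OT7 in WD-SCC (adjusted p = 0.0562 to 0.0691), in a range of 0.00749 to 0.0870 over its alternatives.

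Ccl6, a myeloid chemokine of the mouse, averaged 3.58 ± 0.13 in PD-SCC and 5.34 ± 0.30 in WD-SCC (SD, n = 4 each, difference -1.76, SE 0.18, adjusted p = 0.00571, limma). Only 1 of 4 PD-SCC arrays (OT14) was above the control for Ccl6. The call was lost without lineage OT7 (adjusted p = 0.0564, in a range of 0.00102 to 0.0564 over its alternatives). Ccl11, eotaxin, passed at -0.62 (adjusted p = 0.0479, limma) but was above the control on none of the arrays, so no level is given, and the call was lost without any 1 array of OT7 or OT15 (adjusted p = 0.0930 to 0.137, in a range of 0.0197 to 0.375 over its alternatives). Cxcl10, an interferon-induced chemokine, was bright and mixed, from 6.11 to 8.96 in PD-SCC and from 5.62 to 9.08 in WD-SCC. Ccl5 ran from 6.47 to 8.46 in PD-SCC and from 6.74 to 10.49 in WD-SCC. Neither of these passed.

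Of 18 chemokine receptors measured, limma called 0, with 2 (Ackr2 and Ccrl2) at an unadjusted p under 0.05, and 9 were not above the control on any array. Ccrl2, which binds chemerin and presents it without signalling, stood at 3.96, 4.06, 3.96 and 3.87 in PD-SCC (OT7, OT7, OT14, OT15), against 8.51, 5.31, 6.06 and 6.70 in WD-SCC. Its stages were apart, with a difference of -2.68 and an adjusted p of 0.0588 (limma).

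Of 28 genes of NF-kB signalling and its interleukin 1, tumour necrosis factor and interleukin 17 inputs, 3 passed lower, 0 passed higher, and the median was -0.22. Il1a, the interleukin 1 that keratinocytes store, passed as lower in PD-SCC, by at least 2.43-fold against the control (adjusted p = 0.0122, limma). It ran from 3.24 to 3.34 in PD-SCC, not above the control on any array, and from 4.21 to 5.47 in WD-SCC. That call was lost with the OT7 arrays averaged (adjusted p = 0.0603, in a range of 0.00476 to 0.0603 over its alternatives). Il17rc, a subunit of the interleukin 17 receptor, averaged 5.26 ± 0.08 in PD-SCC and 6.09 ± 0.35 in WD-SCC, with a difference of -0.82 (SD, n = 4 each, adjusted p = 0.0287, limma). Tnip1, which restrains NF-kB with Tnfaip3, averaged 8.38 ± 0.29 in PD-SCC and 9.07 ± 0.15 in WD-SCC, with a difference of -0.69 (SD, n = 4 each, adjusted p = 0.0439, limma). The call on Il17rc was lost without any 1 array other than replicate 2 of OT7 in WD-SCC (adjusted p = 0.0594 to 0.0861), and that on Tnip1 without any 1 of the 8 arrays (adjusted p = 0.0667 to 0.125). Over all their alternatives the ranges were 0.0153 to 0.0944 for Il17rc and 0.0135 to 0.248 for Tnip1. Nfkbia, the inhibitor that NF-kB itself induces, was bright and close in both stages, at 10.67 to 11.38 in PD-SCC and 11.12 to 11.72 in WD-SCC. Of 8 proteases that shed or trim chemokines, limma called 0, with 0 at an unadjusted p under 0.05.

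By sign, 12 of 13 haematopoietic and 8 of 8 endothelial markers were lower in PD-SCC, whereas fibroblast markers had no common direction. Counts that passed lower, here and below, are to be read against 4.81% of all genes. In bulk samples fewer cells of a type and less RNA per cell cannot be told apart. Of 13 haematopoietic markers, 3 passed lower in PD-SCC (Cd68, S100a8 and S100a9), 0 passed higher, and the mean level over the list was 3.68 to 4.22 in PD-SCC and 5.24 to 6.21 in WD-SCC. S100a8 and S100a9 weigh heavily in that mean, with differences of -6.14 and -5.95 against a list median of -0.80. Which cells made S100a8 and S100a9 was not tested. Ptprc, Adgre1 and Itgam, which define leukocytes and their myeloid lines, were not above the control on any array of either stage. Ptprc ran from 2.80 to 2.94 in PD-SCC and from 2.96 to 3.17 in WD-SCC. Of 8 endothelial markers, 2 passed lower (Tie1 and Cldn5), 0 passed higher, and the list's mean level was 3.67 to 4.18 in PD-SCC and 4.15 to 6.52 in WD-SCC, with Tek and Vwf not above the control on any array. Pecam1 stood at 3.75, 3.94, 4.21 and 3.47 in PD-SCC (OT7, OT7, OT14, OT15), against 4.34, 6.71, 7.54 and 7.40 in WD-SCC, lowest of its stage on the unnumbered OT7 array, as Ppbp and Pf4 were. The part of these cells in the levels of Ppbp, Pf4, Ccl3 and Ccl6 was not tested.

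Of 10 fibroblast markers, 1 passed lower (Thy1) and 0 higher, and the list's mean level was 5.22 to 5.91 in PD-SCC and 4.58 to 7.58 in WD-SCC, with Fap not above the control on any array. By sign, 5 of the markers were lower and 5 higher in PD-SCC, with a median of -0.07. The WD-SCC arrays differed among themselves: the unnumbered OT7 array had the highest mean and OT14 the lowest. Col1a1 stood at 8.03, 8.92, 10.03 and 9.78 in PD-SCC (OT7, OT7, OT14, OT15), against 11.85, 8.87, 5.64 and 10.98 in WD-SCC. Dpt, a dermal matrix gene, stood at 3.03, 3.19, 5.01 and 3.23 in PD-SCC, against 9.01, 6.57, 3.39 and 6.35 in WD-SCC. Its highest and lowest WD-SCC arrays were those of Ccl7, and OT14 was the lineage where Dpt, Ccl7 and Ccl2 were all higher in PD-SCC than in WD-SCC. Col3a1 ran from 8.46 to 10.16 in PD-SCC and from 3.54 (OT14) to 10.72 (unnumbered OT7) in WD-SCC. Lum was above the control on 1 array, the unnumbered OT7 array of WD-SCC (7.49). Over the whole list of 10, the unnumbered OT7 array was the highest WD-SCC array for 7 markers and OT14 the lowest for 9. Exceptions were Col1a2, lowest on the unnumbered OT7 array (4.11), Pdgfra, highest on replicate 2 of OT7 (3.84), and Thy1, highest in OT15 (8.35). The part of fibroblasts in the levels of Ccl2, Ccl7 and Cxcl14 was not tested.

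**Figure D4:**
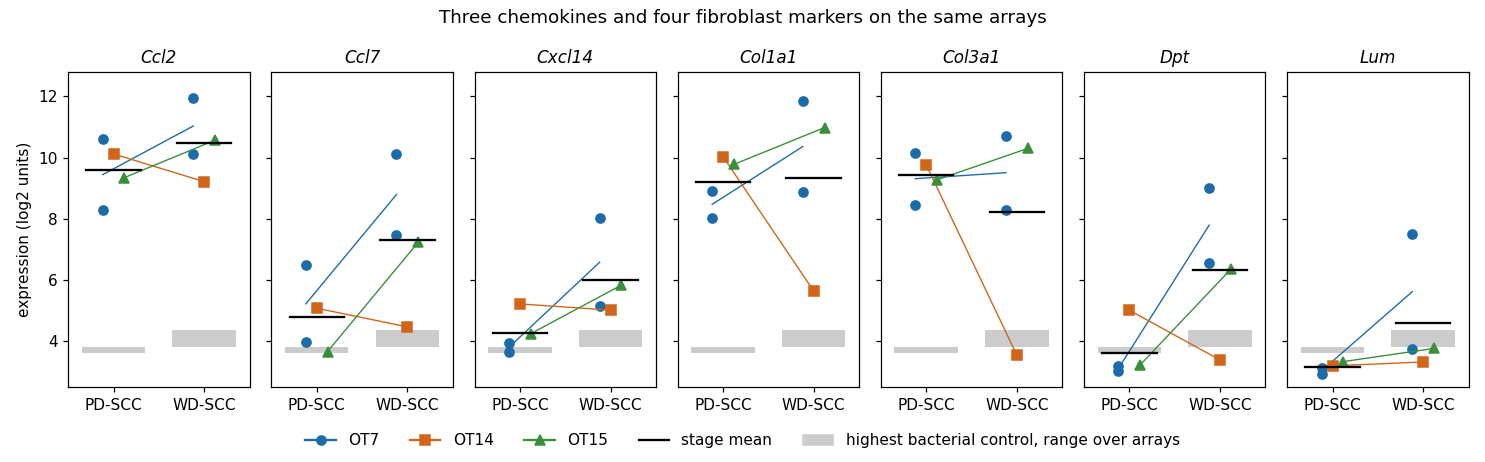
Expression in log2 units (vertical axis) of Ccl2, Ccl7 and Cxcl14 beside Col1a1, Col3a1, Dpt and Lum on the same 8 arrays, PD-SCC left of WD-SCC, with symbols for lineages, black bars at the stage means and grey bands over the range of the bacterial control. The 4 markers were chosen with their values in view. The unnumbered OT7 array is the highest and OT14 the lowest WD-SCC array in the 7 panels shown.

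Of 9 keratinocyte markers measured, 6 passed lower in PD-SCC and 0 higher, with a median of -3.51 and a list mean of 4.60 to 5.42 in PD-SCC and 7.76 to 8.61 in WD-SCC. Itgb4, 1 of the 3 that did not pass, stood at 8.29, 7.12, 7.14 and 8.44 in PD-SCC (OT7, OT7, OT14, OT15), against 8.61, 9.09, 8.84 and 6.23 in WD-SCC, higher in PD-SCC in OT15. The part of these markers in the levels of Cxcl16, Cxcl5 and Il1a was not tested. Genes most like Cxcl16, the chemokine with the smallest p of the stage test, were looked for over the 8 arrays among 1506 genes with an SD of at least 1. Tiam1, an exchange factor for Rac, had a Pearson r of 0.964 and a Spearman rho of 0.976. Serping1, the C1 inhibitor, had an r of 0.952 and a rho of 0.929, and Serpina3n, a serine protease inhibitor, an r of 0.927 and a rho of 0.786. All 3 were lower in PD-SCC with stages that did not overlap, so these correlations hold the difference between the stages, which all points share.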

How the data were processed

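RNA of sorted tumour cells was hybridised as biotin-labelled cRNA to single-colour Affymetrix arrays, per the labels' protocols. The authors deposited log2 values, 1 for each probe set on each array. The submitters' processing notes name affy and RMA, a method of background correction, quantile normalisation and probe summary. Tool versions and the chip definition: not given in the sources used here. Scanner files were not used here.

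Of 45141 probe sets, 104 were controls, 28898 carried 1 gene symbol, 551 several and 15588 none, and 99.1% of genes were matched to RefSeq by Entrez number. The brightest probe set on average stood for each of 17097 genes. The stage effect was fitted with limma 3.58.1 in R 4.3.3 (lineage as a fixed block, 4 residual degrees of freedom). A model with a separate mean for every lineage at every stage gave the effects within lineages and their difference, and its 2 residual degrees of freedom rest on OT7. Benjamini-Hochberg adjustment ran over all genes at a threshold of 0.05. A gene not above the highest of 15 bacterial controls on each array of a stage has a bound: the mean of the brighter stage against the mean, over arrays of the dimmer one, of control or gene, whichever was higher. Figures were drawn with matplotlib 3.10.9 (Python 3.11.15). The fits were also run on simulated data with noise drawn independently for each array, and the outcome is not given here.

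Pairs come from the lineage labels. Across genes, deviations from the stage means correlated between paired stages at -0.04 (OT7), 0.02 (OT14) and 0.06 (OT15). The alternatives were no block, a random block, averaged OT7 arrays, a dim-gene filter, averaged probe sets of a gene, each probe set by itself, cyclic loess, 75th percentile scaling, a trended and robust prior and leaving out each array or lineage. Raising values to the highest bacterial control of the 8 arrays was chosen after seeing the data.

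The 10 chemokines and all lists were chosen with earlier results of these data known. Named genes were the 10, up to 4 genes per other list with the smallest p past the threshold, their receptors, Krt5, Krt14, Cd34, Itga6, Ptprc, Pecam1 and Col1a1, and the 3 genes outside the lists most like Cxcl16. The other genes given with values (among them Pf4, Cxcl15, Cxcl10, Ccl5, Ccl17, Ccl22, Ccrl2, Adam10, Adam17, Nfkbia, Col3a1, Dpt and Lum) were chosen for their place, their role or with their values in view.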

Additional observations from a re-analysis of the deposited data

Results flagged for a closer look

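In 2 of the 20 groups of 4 arrays examined, 1 array lay far from the others, where chance alone puts about 1 in 20 groups. For Cxcl5 in PD-SCC, replicate 2 of OT7 lay at 7.03 and the other 3 arrays between 3.41 and 3.77, and the gap took up a share of 0.901 of the whole range. For Cx3cl1 in WD-SCC, the unnumbered OT7 array lay at 5.39 and the other 3 arrays between 7.08 and 7.28, with a share of 0.896. That share was past the critical value of Dixon's test. Without the first array the difference of Cxcl5 was -4.41 (adjusted p = 0.0535, limma), and without the second the difference of Cx3cl1 was 2.30 (adjusted p = 0.0501, limma).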

How the results depend on the processing

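The count of 2 chemokines called (2154 of all genes) became 3 (2123) with no replicate block, with Ccl20 added, 0 (401) with averaged OT7 arrays, 1 (3047) with each probe set by itself and 1 (1728) under cyclic loess. It was 1 (246) without lineage OT7, 0 (1240) without lineage OT14 and 0 (1282) without lineage OT15. The 1 chemokine called without lineage OT7 was Cxcl5, and neither Cxcl16 nor Cx3cl1 passed there. Leaving out each array in turn gave 0 to 1 chemokines and 886 to 1689 genes. Since OT14 and OT15 have 1 array per stage, leaving out one of their arrays takes that lineage out of the stage effect. The random block, the dim filter, the mean of probe sets, 75th percentile scaling, the trended prior and values raised to the control gave 2 or 3 chemokines and 1779 to 2446 genes. Where there were 3, Ccl20 was the one added. With the mean of probe sets the 2 were Cxcl16 and Ccl20, and Cx3cl1 was lost (adjusted p = 0.0750, limma). Cyclic loess split the calls over all genes into 864 higher and 864 lower, and 75th percentile scaling split them into 1150 higher and 1205 lower, against 1331 and 823 as reported. The median over all genes was -0.01 under cyclic loess, -0.21 under 75th percentile scaling and -0.06 as reported. The sign of 3 uncalled genes turned: Cxcl1 was at -0.044 under cyclic loess, Cxcl2 at 0.20 without lineage OT7, and Cxcl12 at -0.21 with the mean of its probe sets and at -0.13 without lineage OT14 (-0.13 to 0.31 leaving out 1 array). Cxcl5, Cxcl14, Cxcl16, Ccl2, Ccl7, Ccl20 and Cx3cl1 kept their sign in all 21 alternatives. No block, the random block, the dim filter, each probe set by itself and the trended prior leave the difference as reported. The sign could not turn under those. Leaving out 1 array of OT14 or OT15 repeats the fit without that lineage. Values near the bacterial control, such as those of Ccl20, have little range left to differ. The causes of these shifts were not tested.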
